A study of Homo sapiens with 4 samples.

Results

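Mitogen-activated protein kinases (MAP kinases) sit at the end of a relay in which a MAP kinase kinase kinase kinase (MAP4K) or a small GTPase acts on a MAP kinase kinase kinase (MAP3K), which phosphorylates a MAP kinase kinase (MAP2K), which in turn phosphorylates the MAP kinase on a threonine and a tyrosine. The dual-specificity phosphatases (DUSPs) remove phosphate from both kinds of residue, and the typical ones, the MAP kinase phosphatases, switch the kinases off again. In squamous carcinoma cells the ERK arm carries growth factor signals, and the JNK and p38 arms carry stress and cytokine signals.

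The genes described here were MAP4K4, MAP2K2, MAP2K7 and MAPK14 of this cascade, together with every gene whose symbol starts with DUSP in the table of differential ac4C peaks, which were DUSP5, DUSP9, DUSP12 and DUSP14. These 8 genes were part of 6723 genes with a peak in at least 1 of the conditions and of 2483 genes with a row in the differential table. They were chosen by the difference in ac4C enrichment between the conditions, since that table holds only peaks called different, so that a difference between the conditions in these genes is a description and carries no test.

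N4-acetylcytidine (ac4C) in RNA was measured by acRIP-seq, in which fragmented RNA is captured with an antibody against ac4C (IP) and sequenced beside an uncaptured portion (input). The cells were FaDu, an established line from a squamous carcinoma of the hypopharynx, stably carrying a lentiviral control shRNA (shNC) or an shRNA against NAT10 (shNAT10), the enzyme that writes ac4C, and selected with puromycin. The 2 conditions had 1 IP and 1 input library each, 4 libraries in all, so no value has a replicate and no p-value between the conditions was computed. The labels do not say which shRNA against NAT10 was used, and the peak tables hold no reads, so depth, the RNA level of any gene, the extent of the knockdown and the identity of the line could not be read from them. A weaker or missing peak in 1 condition can therefore not be told apart from fewer reads over the transcript.

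In shNC, 6403 peaks were listed over 4977 genes, and in shNAT10, 6417 peaks over 4987 genes. Each peak has a fold enrichment of IP over input, with a median of 12.4 in both lists, a range of 1.35 to 342 in shNC and a range of 1.17 to 366 in shNAT10, and a false discovery rate (FDR) for that enrichment. Because the scaling between the libraries is not known, the percentile of a peak within its own list is given beside its fold enrichment. The NAT10 transcript itself had a peak in both lists on chromosome 11. Its fold enrichment was 6.91 at percentile 24.1 in shNC (34146720 to 34146870) and 12 at percentile 49.4 in shNAT10 (34146612 to 34146850). All positions are GRCh38, counted from 1.

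The 8 genes had 15 peaks, 9 in shNC over 6 genes and 6 in shNAT10 over 4 genes. MAP2K2 and MAP2K7 had a peak in both lists. MAPK14, DUSP9, DUSP12 and DUSP14 had peaks in shNC only, and MAP4K4 and DUSP5 in shNAT10 only. Over all genes with a peak, 48.2% had one in both lists, 25.8% in shNC only and 26.0% in shNAT10 only. Over the genes with a differential row, which were chosen in the same way as these 8, 21.5% had peaks in shNC only and 19.6% in shNAT10 only. All 15 peaks had an FDR of at most 0.05, none overlapped a peak of another gene, and 12 overlapped a differential row while 3 did not.

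**Figure D1:**
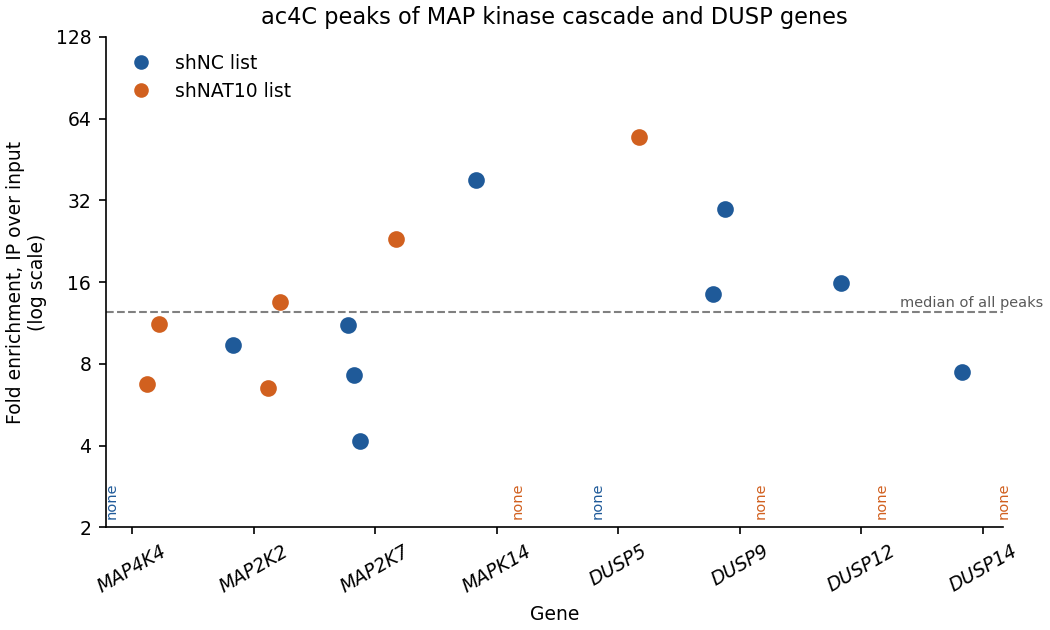
Fold enrichment of IP over input (log scale) of each of the 15 peaks in the 8 genes, ordered by their place in the cascade, with blue points for the shNC list and orange points for the shNAT10 list. The word "none" marks a list without a peak for that gene, and the dashed line is the median of 12.4 of all peaks in either list. The highest point is DUSP5 in shNAT10 (54.9) and the lowest a MAP2K7 peak in shNC (4.14).

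At the top of the cascade, MAP4K4 encodes a Ste20-type kinase that feeds into the JNK arm (ENSG00000071054, chromosome 2, 101697707 to 101894690, plus strand). No MAP4K4 peak was listed in shNC. In shNAT10 a first peak lay at 101887854 to 101888832 in 2 exonic blocks of 84 and 37 nt, with a fold enrichment of 6.76, at percentile 22.0 of its list (FDR 3.1e-08). The other lay 2439 nt further downstream at 101891272 to 101891452 in the 3′-UTR, with a fold enrichment of 11.2 at percentile 45.9 (FDR 7.9e-12). Both shNAT10 peaks of MAP4K4 were thus below the median of their list. The 3′-UTR peak of 181 nt is the differential row of the gene, and the upstream peak overlapped none. They ended 5858 and 3238 nt before the 3′ end of the gene.

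MAP2K2 encodes MEK2, which phosphorylates the ERK kinases (ENSG00000126934, chromosome 19, 4090321 to 4124122, minus strand). In shNC it had 1 peak at 4090351 to 4094723, spliced over blocks of 358 and 271 nt, with a fold enrichment of 9.34 at percentile 37.5. In shNAT10 a peak at 4090411 to 4094484, spliced over blocks of 298 and 32 nt, had a fold enrichment of 6.51 at percentile 20.3. The FDR of both was listed as 0. A further shNAT10 peak of 151 nt at 4094723 to 4094873 had a fold enrichment of 13.5 at percentile 54.2 (FDR 0.0038).

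Of the 8 genes, only MAP2K2 had peaks that overlapped between the lists. The first shNAT10 peak lay wholly within the shNC peak and covered 330 nt, or 52.5%, of it, and its fold enrichment was lower by a log2 value of -0.52, which is 1.43-fold. The further shNAT10 peak met the shNC peak in 1 nt and was higher by a log2 value of 0.53. The percentiles moved the same way as the folds, by -17.3 and 16.6. Neither pair reached a 2-fold difference. Over all 3713 overlapping pairs of peaks, 26.0% were at least 2-fold lower and 22.4% at least 2-fold higher in shNAT10. The enrichment over the last exons of MAP2K2 was therefore listed in both conditions, with borders that differed, and the differential row of the gene spanned both shNAT10 peaks (4090411 to 4094873, 719 nt of exonic sequence).

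MAP2K7 encodes MKK7, a kinase that activates JNK (ENSG00000076984, chromosome 19, 7903877 to 7914478, plus strand). In shNC it had 3 peaks. The first, at 7906920 to 7907039, had a fold enrichment of 11.1 (percentile 45.3, FDR 0.015), the next, at 7912953 to 7913102, one of 7.25 (percentile 26.4, FDR 0.0072), and the last, at 7913940 to 7914089 in the 3′-UTR, one of 4.14 (percentile 8.67, FDR 0.00017). In shNAT10 it had 1 peak, at 7914209 to 7914448 in the 3′-UTR, with a fold enrichment of 23.1 (percentile 74.5, FDR 7.9e-29). The shNC peaks of MAP2K7 were all below the median of their list and the shNAT10 peak was above that of its own.

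None of the MAP2K7 peaks overlapped between the conditions. The 3′-UTR peak of shNC and that of shNAT10 were neighbours, with 119 nt between them, and the shNAT10 peak was nearer to the end of the transcript, 30 nt from the 3′ end against 389 nt. Each of these 3′-UTR peaks overlapped a differential row of its own, and the row of the shNAT10 peak covered 210 nt of it (7914209 to 7914418). MAP2K7 thus appeared in the differential table with a place listed in shNC only and, next to it, a place listed in shNAT10 only. The upstream shNC peaks, with 5913 nt and 837 nt to the next peak, overlapped no differential row.

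MAPK14 encodes p38 alpha, the MAP kinase of the stress and cytokine arm (ENSG00000112062, chromosome 6, 36027808 to 36124214, plus strand). It had 1 peak of 241 nt in shNC, at 36109738 to 36109978, with a fold enrichment of 38 at percentile 87.0 (FDR 1e-10), and none in shNAT10. This was the highest fold enrichment among the 9 shNC peaks. The table classed the peak as 3′-UTR, although it ended 14236 nt before the 3′ end of the gene span, the longest such distance among the 15 peaks. The span covers all transcripts of MAPK14, and the transcript that gave the class is not named in the table.

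Among the typical MAP kinase phosphatases, DUSP5 encodes a nuclear phosphatase of the ERK kinases and is itself induced by ERK signalling (ENSG00000138166, chromosome 10, 110497907 to 110511533, plus strand). No DUSP5 peak was listed in shNC. Its shNAT10 peak at 110510980 to 110511455 was 476 nt long in 1 block, with a fold enrichment of 54.9 at percentile 93.7 (FDR 1.6e-22), and ended 78 nt before the 3′ end. This was the highest fold enrichment of the 15 peaks. The differential row covered 238 nt of it (110511188 to 110511425).

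DUSP9 encodes MKP-4, a mainly cytoplasmic MAP kinase phosphatase (ENSG00000130829, chromosome X, 153642441 to 153651326, plus strand). It had 2 peaks in shNC and none in shNAT10. The first, spliced over blocks of 56 and 94 nt at 153649632 to 153650073 in the coding sequence, had a fold enrichment of 14.5 (percentile 57.3, FDR 0.0015). The other lay 446 nt further on in the 3′-UTR, at 153650520 to 153650699, with a fold enrichment of 29.7 (percentile 81.6, FDR 4e-08). Both DUSP9 peaks were above the median of the shNC list, and each overlapped a differential row of its own. The row of the first was shorter than the peak (153649632 to 153650043, 120 nt of exonic sequence). DUSP5 and DUSP9 thus differed in the list that held their peaks. The DUSP9 peaks ended 1253 and 627 nt before the 3′ end.

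The other DUSP genes are atypical DUSPs, which lack the MAP kinase binding domain of the typical ones. DUSP12 (ENSG00000081721, chromosome 1, 161749786 to 161757238, plus strand) had 1 shNC peak of 150 nt in the 3′-UTR, at 161756910 to 161757059, with a fold enrichment of 15.9 at percentile 61.5 (FDR 0.00062), 179 nt before the 3′ end. DUSP14 (ENSG00000276023, chromosome 17, 37488566 to 37513498, plus strand) had 1 shNC peak of 210 nt in the 3′-UTR, at 37513233 to 37513442, with a fold enrichment of 7.48 at percentile 27.3 (FDR 1.6e-08), 56 nt before the 3′ end. Neither had a peak in shNAT10. DUSP12 lay above the median of the shNC list and DUSP14 below it.

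Counted over peaks, 8 of the 9 shNC peaks had no overlapping shNAT10 peak, beside 48.3% of all shNC peaks, and 4 of the 6 shNAT10 peaks had no overlapping shNC peak, beside 48.5% of all shNAT10 peaks. Among peaks of genes with a differential row, these shares were 43.9% in shNC and 42.9% in shNAT10. The genes were chosen on the same contrast, so nothing is read from these counts. Over all peaks, the share without an overlap moved with how strong a peak was. When the shNC peaks were ranked by p-value, in 4 equal parts, it went from 81.1% in the weakest part through 64.8% and 38.7% to 8.68% in the strongest, and these parts held 3, 4, 1 and 1 of the 9 shNC peaks. In shNAT10 it went from 80.6% through 64.6% and 41.1% to 7.66%, with 1, 1, 3 and 1 of the 6 peaks. Ranked by fold enrichment, the share moved less and not steadily, from 57.4% through 59.6% and 49.5% to 26.9% in shNC, with 1, 4, 2 and 2 of the peaks, and from 55.2% through 59.4% and 49.8% to 29.5% in shNAT10, with 2, 1, 2 and 1. The part of peak strength in the counts was not tested.

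**Figure D2:**
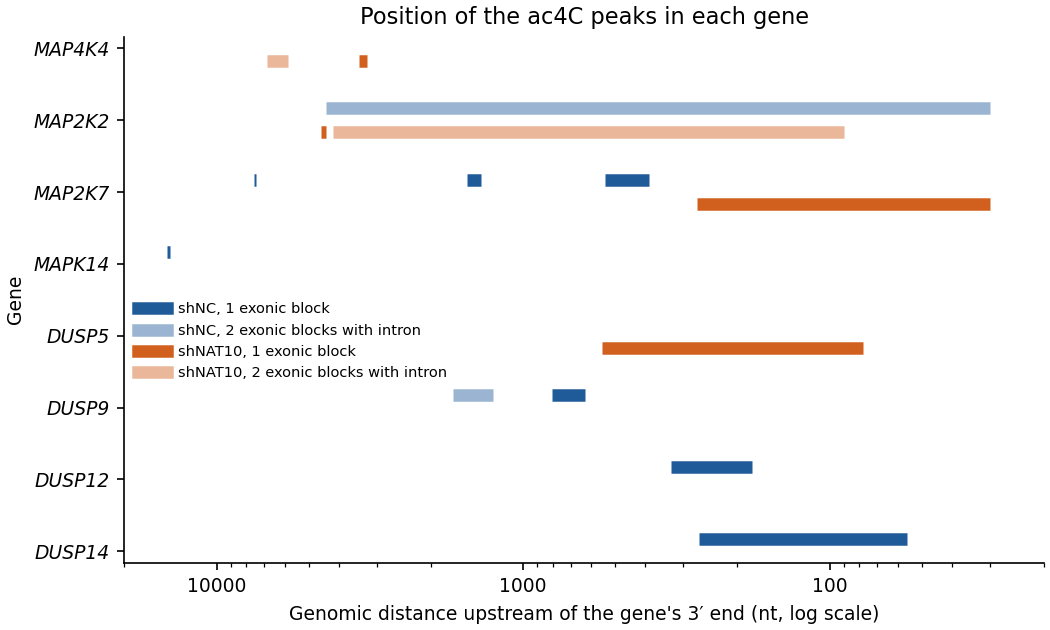
Position of each of the 15 peaks as the genomic distance upstream of the 3′ end of its gene (nt, log scale, the 3′ end to the right), with shNC in blue above and shNAT10 in orange below each gene line. Pale bars span an intron between 2 exonic blocks. Bars of the 2 conditions overlap in MAP2K2, and in MAP2K7 the shNAT10 bar lies just downstream of the last shNC bar.

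Of the 15 peaks, 8 ended within 1000 nt of the 3′ end of the gene, 5 of 9 in shNC (median distance 627 nt) and 3 of 6 in shNAT10 (median 1664 nt). Over all peaks of genes that could be named, 60.0% of 5869 in shNC (median 508 nt) and 60.4% of 5967 in shNAT10 (median 509 nt) did so. The peaks of DUSP5, DUSP12 and DUSP14, the long MAP2K2 peak in each list and the shNAT10 peak of MAP2K7 ended between 30 and 179 nt before it. The peak farthest away was that of MAPK14, followed by the first MAP2K7 peak in shNC (7439 nt, and 3043 nt from the 5′ end), the upstream MAP4K4 peak (5858 nt), the further MAP2K2 peak in shNAT10 (4402 nt) and the downstream MAP4K4 peak (3238 nt). For RefSeq promoters, which were held for 6 of the 8 genes, 0 peaks overlapped.

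The 8 genes had 10 rows in the differential table, since MAP2K7 and DUSP9 had 2 each. The table classed 7 of the 10 as 3′-UTR (70%, 95% Wilson interval 39.7 to 89.2), beside 56.1% of all 2807 rows. Of the others, the upstream DUSP9 row was classed as coding sequence (19.4% of all rows), and the MAP2K2 and DUSP5 rows only as exon (23.7% of all rows). The interval treats the 10 rows as independent draws. They are not, since the genes were not drawn at random and MAP2K7 and DUSP9 gave 2 rows each. No difference from the share of all rows was tested. The rows had a median exonic length of 195.5 nt, beside 241 nt over all rows.

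**Figure D3:**
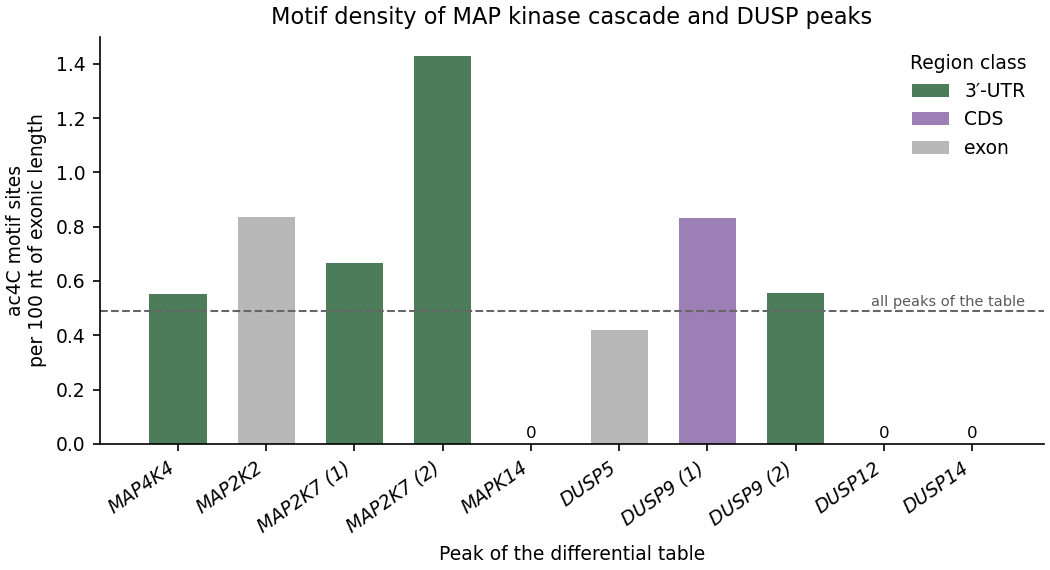
Sites of the ac4C motif per 100 nt of exonic length in the 10 differential rows of the 8 genes, coloured by region class, with rows of 1 gene numbered along the transcript and 0 written where no site was listed. The dashed line is the density of 0.490 over all 2807 rows. The downstream MAP2K7 row has the highest density (1.43), and MAPK14, DUSP12 and DUSP14 have no site.

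The differential table also lists sites of the motif CXXCXXCXXCXX, a run of 12 bases in which each cytidine is followed by 2 bases of any kind (X), the sequence setting tied to ac4C in mRNA. At least 1 site was listed in 7 of the 10 rows, beside 60.9% of all rows. The rows held 16 sites, of which 14 lay within exonic blocks, or 0.584 sites per 100 nt over 2399 nt of exonic sequence, beside 0.490 per 100 nt over all rows. MAP2K2 had 8 of the 16 sites, 6 of them in its exonic blocks (0.834 per 100 nt over 719 nt). Leaving this long row aside, the others had between 0 and 3 sites.

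The pair of neighbouring MAP2K7 rows differed in their sites. The row listed in shNAT10 held 3 sites, which began 1, 41 and 68 nt from its upstream border, at 1.43 sites per 100 nt, and the row listed in shNC held 1 site, 120 nt from its upstream border, at 0.667 per 100 nt. The MAP4K4 row had 1 site (0.552 per 100 nt), as had DUSP5 (0.420 per 100 nt) and each DUSP9 row (0.833 in the coding sequence and 0.556 in the 3′-UTR). The rows of MAPK14, DUSP12 and DUSP14 had 0 sites, and these 3 genes had their peaks in shNC only. With so few rows no relation between sites and condition was tested.

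To place the 8 genes within their pathway, a list of 138 genes in 11 roles was searched for peaks, and 56 of them had one, 25 in both lists, 15 in shNC only and 16 in shNAT10 only. These are 44.6%, 26.8% and 28.6% of the 56 genes, close to the 48.2%, 25.8% and 26.0% of all genes with a peak, and the counts by role below are small parts of them from which no difference between roles is read. Without the 8 genes these counts were 23, 11 and 14 of 130. Genes outside the differential table were named by their position on RefSeq genes, so that these names are less certain than those above.

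In the upper tiers, 2 of 7 MAP4K genes had a peak, MAP4K4 and MAP4K1, a kinase of blood cells for the most part (11.7 in shNC and 7.61 in shNAT10). The shNAT10 peak of MAP4K1 had an FDR of 1 and did not overlap its shNC peak. Of 25 MAP3K genes, 4 had peaks in both lists, 2 in shNC only and 6 in shNAT10 only. The highest fold enrichment of this tier in shNC was that of MAP3K12, a kinase of the JNK arm (21.4, with 5.49 in shNAT10). The MAP3K12 peaks lay at different places and did not overlap. In shNAT10 the highest was that of TAOK2, a stress-responsive kinase (41, with no peak in shNC). MAP3K1 (6.91) and MAP3K21 (8.98, FDR 0.055) had a peak in shNC only.

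Of 7 MAP2K genes, 3 had a peak, and all 3 had it in both lists. Beside MAP2K2 and MAP2K7 this was MAP2K3, which activates p38. Its fold enrichment was 69.8 in shNC and 10.1 in shNAT10, over peaks that shared 209 nt, a log2 difference of -2.79. MAP2K3 was thus, on the fold enrichments of the lists, farther apart between the conditions than either MAP2K2 pair, although it is outside the differential table.

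Of 14 MAP kinases, 6 had a peak. MAPK3, which encodes ERK1, had the same 269 nt peak in both lists, at 18.6 in shNC and 21.8 in shNAT10, with another shNC peak at 8.81. MAPK6 (4.65) and MAPK12 (8.45) had a peak in shNAT10 only. MAPK14 was the MAP kinase with the highest fold enrichment in either list. Of 11 kinases activated by MAP kinases, 5 had a peak. MKNK2, which phosphorylates the cap-binding factor eIF4E, was the highest in both lists, with 74.3 in shNC and 47.6 in shNAT10. MAPKAPK2 (3.22) had a peak in shNC only, and RPS6KA2 (12.7) and RPS6KA4 (4.65) in shNAT10 only.

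The RAS proteins and adaptors, which link receptors to the cascade, had a peak in 6 of 10 genes. SOS1, the exchange factor of RAS, had 33.2 in shNC and no peak in shNAT10, and GRB2 (9.21) and RRAS (3.78) were also listed in shNC only. SHC1 had 13.9 in shNC and 12.1 in shNAT10 over peaks that overlapped. Of 12 scaffold genes, 6 had a peak, and LAMTOR2, part of the complex that holds MEK and ERK on late endosomes, had nearly the same value in both lists (85.6 in shNC and 87.6 in shNAT10). IQGAP1 (3.41) was listed in shNC only and MAPK8IP1 (3.38, FDR 0.24) in shNAT10 only. Of 11 inhibitors, PEBP1, which keeps RAF from MEK, had 37.3 in shNC and 14.4 in shNAT10, and PEA15 had a peak in shNAT10 only (10.5).

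Among the 10 typical MAP kinase phosphatases, only DUSP5 and DUSP9 had an assigned peak. One shNC peak with a fold enrichment of 3.45 (chromosome 12, 89348457 to 89348576) lies where DUSP6 and the readthrough gene POC1B-DUSP6 cannot be told apart, and was counted for neither. Of 17 atypical DUSPs, 5 had a peak. DUSP23 had 11.6 in shNC and 14.6 in shNAT10, and the pseudophosphatase STYXL1 had 9.81 and 40.5 at different places of its transcript. DUSP3, also known as VHR, had a peak in shNAT10 only (35.5) and no row in the differential table. With DUSP3 and DUSP23 counted, 6 genes with a DUSP symbol had a peak, 3 in shNC only, 2 in shNAT10 only and 1 in both. Over all genes with a peak, these shares were 25.8%, 26.0% and 48.2%. DUSP5, DUSP9, DUSP12 and DUSP14 were chosen on the same contrast, so nothing is read from this count.

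Of 14 transcription factors that the cascade acts on, 6 had a peak. JUND, an AP-1 subunit, had 85.9 in shNC and 31.3 in shNAT10 over the same 473 nt. FOSL2 (29.7) and ETV5 (11.2) had a peak in shNC only. The role had 3 genes in both lists, 3 in shNC only and 0 in shNAT10 only, beside 25.8% and 26.0% of all genes in 1 list only.

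**Figure D4:**
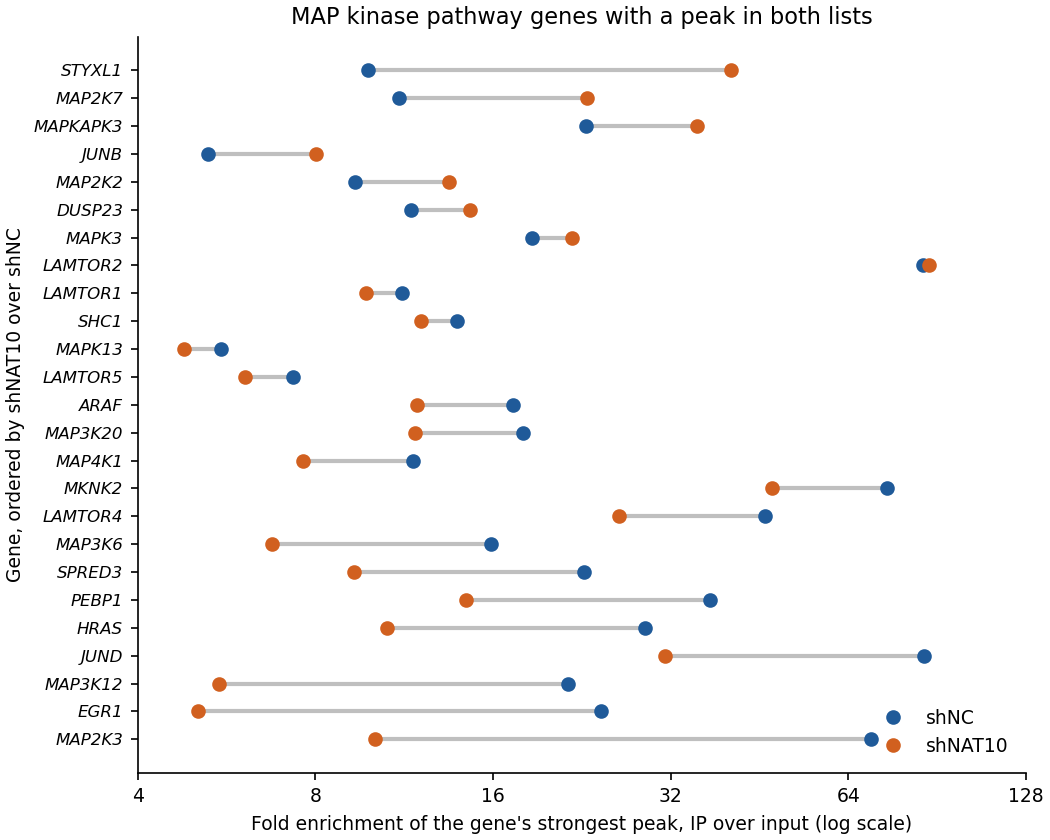
Fold enrichment of IP over input (log scale) of the strongest peak in shNC (blue) and in shNAT10 (orange) of the 25 pathway genes with a peak in both lists, ordered by the ratio, with a grey line joining the points of a gene. MAP2K2 and MAP2K7 are among the 8 genes at the top whose shNAT10 point lies to the right. In the 17 others the shNC point lies to the right. The points of a gene can come from peaks at different places. In MAP2K7 the peaks shown do not overlap, and in MAP2K2 they share 1 nt.

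Of the 25 pathway genes with peaks in both lists, the strongest peak was lower in shNAT10 in 17 and higher in 8. The median log2 difference was -0.54. Over all 3241 genes in both lists, 1685 were lower and 1549 higher, with a median of -0.08. Of the 23 genes other than MAP2K2 and MAP2K7, 17 were lower and 6 higher, with a median log2 difference of -0.61. Leaving out these 2 genes did not remove the choice on this contrast. Of the 25 genes, 11 had a row in the differential table, among them PEBP1 and JUND on the lower side and STYXL1 on the higher. The pathway list was also drawn up with earlier results of these data known, so nothing is read from these counts. At least 2-fold lower were 8 of the 23 (34.8%), beside 25.0% of all genes in both lists, and at least 2-fold higher was 1 (4.35%), STYXL1, beside 21.9%. With MAP2K2 and MAP2K7 counted, 8 of the 25 were at least 2-fold lower (32%) and 2 at least 2-fold higher (8%), STYXL1 and MAP2K7. The strongest peak was taken wherever it lay in the gene. In MAP4K1, ARAF, MAP3K6, MAP3K12, MAP3K20 and SPRED3 among the lower genes, and in STYXL1, no peaks overlapped between the lists. MAP3K6, MAP3K12 and SPRED3 were among the genes at least 2-fold lower. Of the 17 lower genes, MAP4K1, MAP3K6 and SPRED3 had a shNAT10 peak with an FDR above 0.05 (1, 1 and 0.051). With peaks of an FDR of at most 0.05 only, 14 of 20 genes were lower and 6 higher, with a median log2 difference of -0.40. Over all 3062 genes with such peaks, 1593 were lower and 1462 higher, with a median of -0.07. Of the 20 genes, 6 were at least 2-fold lower (30%) and 1 at least 2-fold higher (5%), beside 25.0% and 21.7%. MAP2K7, at 11.1 in shNC and 23.1 in shNAT10, and MAP2K2, at 9.34 and 13.5, stood on the higher side. The MAP2K7 peaks did not overlap, and those of MAP2K2 shared 1 nt. Within the shNC peak of MAP2K2, the shNAT10 peak was lower, at 6.51 (log2 difference -0.52). When only overlapping peaks of the same gene were compared, 6 of 18 pathway pairs were at least 2-fold lower (33.3%). At least 2-fold higher was 1 pair (5.56%), and the median log2 difference was -0.24. Over 3421 pairs of all genes these shares were 25.5% and 22.3%, with a median of -0.09. The 18 pairs came from 16 genes, and 12 were lower and 6 higher, beside 1798 and 1617 of the 3421 pairs. The pair at least 2-fold higher had the same shNAT10 peak as 1 of those at least 2-fold lower. These are values from 1 IP library per condition, and no test between the conditions was possible.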

How the data were processed

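The authors had the libraries sequenced and the peaks called by a company. The submitters' processing notes name cutadapt 2.5, HISAT2 2.1.0, featureCounts 1.6.3 and HOMER 4.10.4 and the build GRCh38; the peak caller, its thresholds and the scaling between libraries are not given in the sources used here. The deposited peak lists hold, for each peak, the fold of IP against input (a ratio) and a log10 score of its FDR. The deposited differential table also holds log2 fold changes, p-values and FDRs of the authors' own comparison, which were not used; its symbols, region classes and motif sites were. Condition was assigned by the prefix that tables and library titles have in common.

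Peaks overlapped where exonic blocks of 1 strand had at least 1 nt in common, computed with Python 3.11.15, pandas 2.3.3 and scipy 1.17.1 (Wilson intervals), after a check on simulated peaks. The expected answer of that check came from the same overlap routine, so an error in strand or border handling could pass it. Of 6723 gene identifiers, 2483 had a symbol in the table and 3846 were named by position within a RefSeq gene of GRCh38.p14; of 2231 paired identifiers that could be tested, 94.9% got the same symbol or a synonym. Depth is unknown. The genes and lists were chosen with earlier results of these data known. Named pathway genes were, per role, the highest in each list and those in 1 list only where 5 or fewer; 3 of these are counted but not reported by name here. The other genes with a DUSP symbol were named after their values were seen. So were those with an FDR above 0.05 or without overlapping peaks in the comparison of strongest peaks. Alternatives were stricter peaks, 50% overlap, other folds, percentiles, exonic sites and gene-level presence.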

Additional observations from a re-analysis of the deposited data

How the results depend on the processing

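Of 32 alternative values, 27 were classed as the same as the reported one, 5 as moved and 0 as changed in direction. The class of the same values still held shifts. The shNAT10 peaks without a counterpart went from 4 to 3 when presence was counted by gene. The pathway genes in shNC only went from 15 to 11 without the 8 genes. The 3′-UTR share went from 70% to 87.5% without the rows classed only as exon. Counting a shNC peak as shared where its gene had any shNAT10 peak left 5 of 9 without a counterpart in place of 8, because all 3 MAP2K7 peaks then counted as shared. When 50% of each peak had to be covered, 1 pair of MAP2K2 peaks remained in place of 2, since the other shared 1 nt. With symbols of the differential table only, an alternative added after seeing the data, 11 pathway genes had a peak in both lists, 6 in shNC only and 5 in shNAT10 only, in place of 25, 15 and 16, because fewer genes could be named. The comparisons of overlapping pairs and of peaks with an FDR of at most 0.05, in place of all strongest peaks, were also added after seeing the data. No paired analysis was possible because there is only 1 IP library for shNC and 1 for shNAT10. Without replicates, no sample could be left out, and unknown depth leaves a peak missing from a list without an upper limit.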
